A study of Mus musculus with 14 samples.

Results

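The response to epidermal growth factor (EGF) was measured in neural stem cells carrying Cic, the gene of the transcriptional repressor Capicua. The arrays titled Cic+/+ were taken, and the level without EGF was subtracted from the level with EGF within each clone number, which gave 4 pairs of arrays from clones 1 to 4. These are 8 of the 14 arrays and 4 of the 7 clones of the series, and no measured value entered that choice. The other 6 arrays are those of Cic-/- clones 5 to 7, handled the same way.

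The cells were mouse neural stem cells from the subventricular zone of the lateral ventricles, taken at postnatal day 4, and each clone came from a separate animal. The Cic-/- cells came from Cic flox/flox animals and lost the gene through an adenovirus that carries Cre recombinase. The Cic+/+ cells, labelled as wild type controls, received that adenovirus too, so both groups share the transduction. For 24 h the cultures were kept in a proliferation medium (NeuroCult) with EGF (EGF+) or without it (EGF-), and each clone gave 1 culture per medium. RNA was then measured on Affymetrix arrays. All values are log2 levels, so that a difference of 1 is a doubling, and a gene's level is the median over its probesets.

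EGF binds the receptor tyrosine kinase EGFR, which signals through RAS, RAF and MEK to the kinase ERK. ERK switches on immediate early genes and ETS factors, and also the Sprouty and dual-specificity phosphatase genes that feed back on the pathway. In neural stem cell cultures EGF is a standard mitogen, and its withdrawal is a common first step in differentiation protocols. CIC binds short octamers in DNA and represses genes of the ETS and Sprouty families, and ERK signalling relieves that repression.

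Array medians of the 8 Cic+/+ arrays lay between 6.50 and 6.54. Cic itself was at 9.50 ± 0.13 with EGF and 9.43 ± 0.21 without it (SD, n = 4 clones), and at 7.04 to 7.67 in the 6 Cic-/- arrays. Xist, the RNA that coats the inactive X chromosome, was at 11.96 to 12.40 in clones 1 to 3 but at 4.73 and 3.83 in clone 4, so clone 4 stands apart. The neural stem cell markers Vim and Fabp7 averaged 13.46 and 13.09 with EGF and 13.34 and 13.20 without it. Other such markers moved more or less than these: Nes rose and Sox2 hardly changed, as given below. Hes5 was at 9.22 ± 0.18 with EGF and 10.06 ± 0.62 without it, and Slc1a3 at 12.66 ± 0.23 and 12.99 ± 0.15. Neither of the latter passed (adjusted p = 0.147 and 0.161 by limma). Microglial, pericyte, ependymal and choroid plexus lists had no member that passed the test for EGF, against 5.58% of all genes tested. That does not show whether such cells were present. Of 5 endothelial markers Pecam1 alone rose, from 4.65 ± 0.20 to 5.22 ± 0.24, close to the dim limit of 4.40, a call lost without clone 2, 3 or 4 (adjusted p up to 0.126). Mean levels of these lists lay between 4.49 and 6.06 on the Cic+/+ arrays. Single members were higher, such as the endothelial Flt1 at 7.89 ± 0.28 with EGF and the choroid plexus marker Otx2 at 7.01 with EGF in clone 4.

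**Figure D1:**
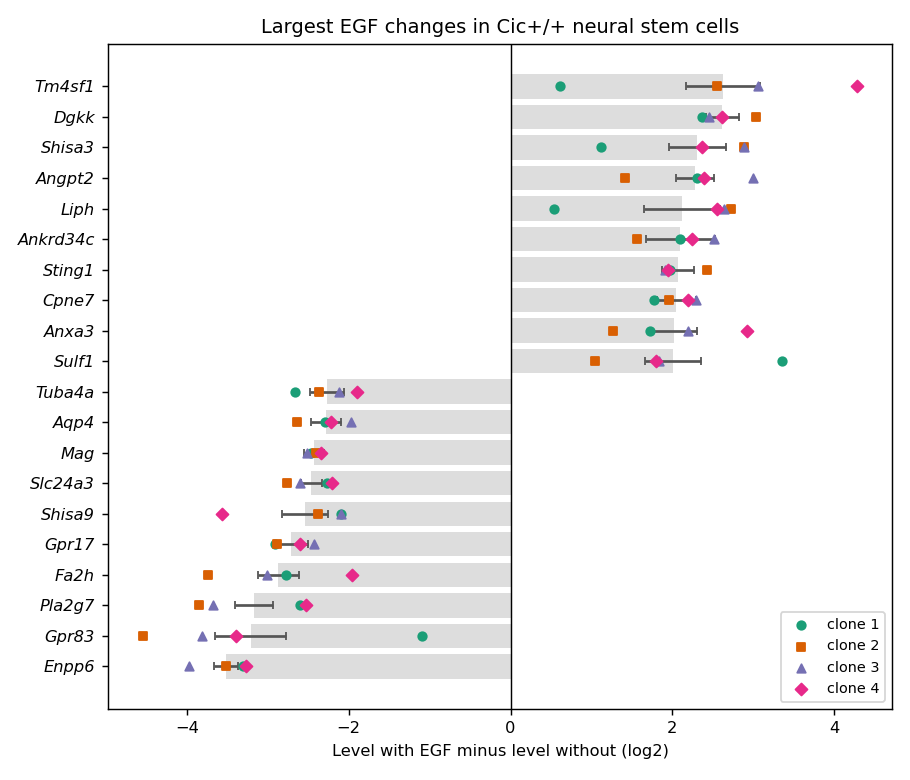
Change with EGF (log2, EGF+ minus EGF-) in each of the 4 Cic+/+ clones for the 10 largest rises and the 10 largest falls chosen by the stated rule, with 1 point per clone, bars for the fitted change and lines for its SE. For Mag the clones lie between -2.52 and -2.34, while for Liph clone 1 lies at 0.54 and the others at 2.55 to 2.73.

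With EGF, 969 of 17364 genes tested (5.58%) differed at an adjusted p under 0.05 (limma, Benjamini-Hochberg over all genes). Of these 399 rose (2.3%) and 570 fell (3.28%). A rise had a median of 0.76 and a fall a median of -0.80, and 114 genes rose by more than 1 while 155 fell by more than 1. The sign was the same in all 4 clones for 964 of the 969, against 28.9% of all genes tested, and the levels with and without EGF did not overlap for 567 of them, against 8.39%. The calls were made on these same differences, so both counts follow largely from the choice of genes and are no separate support. Since the cultures are bulk samples, fewer cells of a type and less RNA per cell cannot be told apart. Leaving out clone 2, 3 or 4, the last with the low Xist, left 285, 365 and 386 called genes, and leaving out clone 1 left 976.

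The upstream sequences of 4 genes are shown because 3 of them differed between genotypes in their response and the fourth, Liph, holds a CIC octamer. Each is the 250 bases before the start, from RefSeq (GRCm38.p6), written 5′ to 3′ on the gene's strand, and the capitals mark 1 searched motif where a window holds any. They are Enpp6 at chr8:46986637-46986886 (plus strand), Mag at chr7:30914864-30915113 (minus strand, 1 of 3 windows listed for it), Tmem163 at chr1:127678022-127678271 (minus strand) and Liph at chr16:21995543-21995792 (minus strand). The Mag window was picked from its 3 because it holds the MYRF motif.
Enpp6: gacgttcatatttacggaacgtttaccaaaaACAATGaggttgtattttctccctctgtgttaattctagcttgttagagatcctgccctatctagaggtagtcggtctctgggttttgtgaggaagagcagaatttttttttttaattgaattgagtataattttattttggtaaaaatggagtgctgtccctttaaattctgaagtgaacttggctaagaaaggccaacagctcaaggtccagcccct
Mag: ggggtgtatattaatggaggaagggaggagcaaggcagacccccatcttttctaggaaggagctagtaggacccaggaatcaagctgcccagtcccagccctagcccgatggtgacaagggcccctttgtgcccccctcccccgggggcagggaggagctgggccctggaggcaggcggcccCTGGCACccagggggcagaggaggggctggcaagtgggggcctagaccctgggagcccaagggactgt
Tmem163: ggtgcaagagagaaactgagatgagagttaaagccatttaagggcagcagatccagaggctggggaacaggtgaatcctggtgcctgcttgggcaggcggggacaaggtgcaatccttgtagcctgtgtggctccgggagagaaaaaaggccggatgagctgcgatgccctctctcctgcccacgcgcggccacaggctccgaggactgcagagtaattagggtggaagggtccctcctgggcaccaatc
Liph: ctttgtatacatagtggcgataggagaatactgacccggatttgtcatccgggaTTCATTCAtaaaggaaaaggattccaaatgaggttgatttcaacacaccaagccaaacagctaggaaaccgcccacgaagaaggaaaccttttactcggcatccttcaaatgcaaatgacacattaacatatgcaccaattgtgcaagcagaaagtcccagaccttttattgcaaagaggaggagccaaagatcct
The capitals are the SOX motif ACAATG at -219 in Enpp6, the MYRF motif CTGGCAC at -68 in Mag and the CIC octamer TTCATTCA at -196 in Liph. The Liph window also holds the CHR element TTTGAA on the other strand, left in lower case. No searched motif was in the printed Tmem163 window. These are letter matches and not sites of binding. Liph rose by 2.12 ± 0.47 in Cic+/+ clones and by 2.73 ± 0.54 in Cic-/- clones (SE). The difference between these responses did not pass (0.61 ± 0.71, adjusted p = 0.99 by limma).

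Both strands of each 300-base promoter window (250 bases before the start and 50 after) were searched for 13 motifs. The windows covered 302 of the 399 genes that rose (387 windows) and 456 of the 570 that fell (610 windows), beside 15869 windows of genes tested and not called and 32851 windows in all, which include genes not tested. Shares are given in that order: risen, fallen, not called and all. The CIC octamers TGAATGAA and TGAATGGA were in 2.33%, 2.30%, 1.76% and 2.47% of windows, so that risen and fallen genes lay above those not called and below all windows. The E2F motifs TTTCCCGC, TTTGGCGC, TTTCGCGC and TTTGCCGC were in 4.65%, 2.13%, 3.43% and 2.26%. TTTGAA, the cell cycle CHR element, was in 14%, 10%, 12.5% and 17.9%. The MYRF motifs CTGGCAC and CTGGTAC were in 6.98%, 8.03%, 6.98% and 7.10%, and the RUNX motif TGTGGTT in 6.72%, 2.62%, 3.96% and 5.27%. The AP-1 motif TGAGTCA was in 4.39%, 3.11%, 4.11% and 5.20%, TGACGTCA (CRE) in 3.10%, 1.64%, 2.67% and 1.79%, CCGGAAGT (ETS) in 3.62%, 1.97%, 6.57% and 3.89%, and the serum response element in 0%, 0%, 0.0315% and 0.0639%. The p53 motif CATGCCC was in 3.88%, 2.46%, 3.65% and 3.76%, ACAATG (SOX) in 6.72%, 8.52%, 8.23% and 12.6%, CATTCCA (TEAD) in 2.84%, 2.46%, 3.25% and 4.29%, and TTGGCA (NFI) in 10.1%, 13.4%, 12.2% and 14.1%. Overlaps between motifs were not removed, and no test was run on these shares.

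Dgkk, Angpt2 and Sting1 were among the largest rises. Dgkk, a diacylglycerol kinase, was at 9.65, 10.15, 9.28 and 8.69 with EGF in clones 1 to 4 and at 7.27, 7.12, 6.83 and 6.07 without, so the groups did not overlap, and it rose by 2.62 ± 0.20 (SE, 6.14-fold, adjusted p = 0.000143 by limma). Angpt2, a ligand of the TIE2 receptor, was at 9.41, 7.55, 8.40 and 9.02 against 7.11, 6.14, 5.41 and 6.63 and rose by 2.28 ± 0.23 (adjusted p = 0.000465). Sting1, the adaptor of cytosolic DNA sensing, was at 9.95, 9.93, 8.70 and 9.30 against 7.99, 7.49, 6.78 and 7.36 and rose by 2.07 ± 0.20 (adjusted p = 0.000456). In all 3 genes every clone was higher with EGF, which the rule for naming them required. Tm4sf1, a membrane protein with 4 transmembrane spans, rose by 2.63 ± 0.46, the membrane-bound Shisa3 by 2.31 ± 0.35, Cpne7 (a copine) by 2.05 ± 0.24, Anxa3 (an annexin) by 2.02 ± 0.29 and Sulf1, which trims sulfate from heparan sulfate, by 2.01 ± 0.35. Liph, a phospholipase, was at 8.98, 8.57, 7.76 and 7.55 with EGF and 8.44, 5.84, 5.11 and 5.00 without, where clone 1 overlapped the EGF+ arrays, and rose by 2.12 ± 0.47 (adjusted p = 0.0275). Ankrd34c rose by 2.10 ± 0.43. Without clone 2, 3 or 4 in turn Liph and Ankrd34c lost their call (adjusted p up to 0.139 and 0.0948), and Tm4sf1 did without clone 2 or 3 (up to 0.0562).

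The largest fall was that of Enpp6, a choline phosphodiesterase of newly formed oligodendrocytes. It was at 8.52, 8.49, 8.67 and 8.34 without EGF and at 5.21, 4.97, 4.70 and 5.07 with it, and fell by 3.52 ± 0.15 (11.4-fold lower, adjusted p = 3.75e-06). The arrays with EGF lie near the dim limit, which limits how well the size is known. Pla2g7, which cleaves platelet-activating factor, was at 10.69, 10.76, 10.24 and 10.37 without EGF and 8.09, 6.90, 6.55 and 7.84 with it, and fell by 3.17 ± 0.24 (adjusted p = 0.000143). In both genes no array with EGF reached those without. Gpr83, a G protein-coupled receptor, fell by 3.21 ± 0.44, and clone 1 was already low without EGF, at 5.28 against 9.06 to 9.84 in the other clones. Slc24a3, a sodium, calcium and potassium exchanger, fell by 2.46 ± 0.13, Shisa9 by 2.54 ± 0.29 and the tubulin Tuba4a by 2.27 ± 0.21. The falls of Enpp6, Pla2g7, Gpr83, Slc24a3, Shisa9 and Tuba4a each kept their call without any 1 clone.

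**Figure D2:**
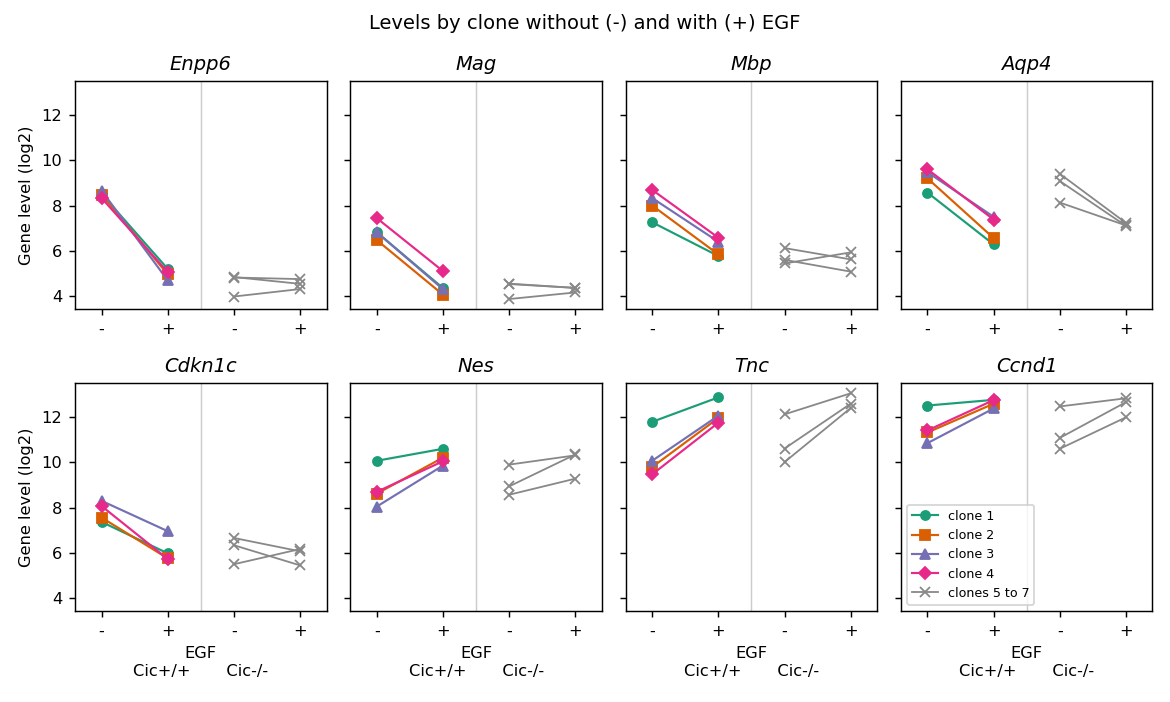
Level (log2) of 8 genes in each clone without (-) and with (+) EGF, with a line joining the arrays of 1 clone. The oligodendrocyte genes Enpp6, Mag and Mbp and the astrocyte gene Aqp4 run downward in all 4 Cic+/+ clones (coloured), Nes, Tnc and Ccnd1 run upward, and in grey are the 3 Cic-/- clones, in which Enpp6 starts at 3.99 to 4.85 without EGF.

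The oligodendrocyte and myelin list had 10 of 20 tested members that fell (50%) and none that rose. Over all genes tested 3.28% fell and 2.3% rose. This list and those below were chosen with earlier results of these data known. Their shares beside those of all genes are therefore descriptive and no separate support. The list median was -0.77 beside 0.00 over all genes tested. The clone medians were -0.30, -0.61, -0.91 and -0.88 in clones 1 to 4. Mag, the myelin-associated glycoprotein, was at 6.82, 6.48, 6.83 and 7.45 without EGF and 4.36, 4.07, 4.31 and 5.11 with it, and fell by 2.43 ± 0.12 (adjusted p = 8.92e-06). Mbp, the basic protein of myelin, was at 7.27, 8.01, 8.34 and 8.70 without EGF and at 5.78, 5.85, 6.41 and 6.59 with it, and fell by 1.92 ± 0.18 (adjusted p = 0.000388). The groups did not overlap for either gene. Fa2h, which hydroxylates myelin lipids, fell by 2.87 ± 0.25, Nfasc, an adhesion molecule of nodes and paranodes, by 2.13 ± 0.19, and Myrf, the transcription factor of myelin genes, by 1.68 ± 0.15. Cnp, Cldn11, Aspa and Sirt2 also fell. With the brightest probeset of each gene in place of the median, Fa2h was at 0.19 and Nfasc and Myrf no longer passed (adjusted p = 0.123 and 0.283), and 7 members of the list fell. Leaving out a clone gave 7 to 11 members that fell.

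Of 17 genes in the oligodendrocyte progenitor list 5 fell (29.4%, against 3.28% of all genes) and none rose, with a list median of -0.30. The list also holds genes of committed or myelin-forming cells, such as Gpr17 and Ugt8a, so its falls are not those of progenitor markers alone. Gpr17, a receptor of committed progenitors, was at 9.96, 11.01, 10.63 and 10.26 without EGF and 7.05, 8.12, 8.20 and 7.66 with it, and fell by 2.71 ± 0.21 (adjusted p = 0.000157), with no overlap. Ugt8a, which makes the myelin galactolipids, fell by 1.71 ± 0.17, the matrix protein Tnr by 1.14 ± 0.19, the lineage factor Sox10 by 0.98 ± 0.18 and the proteoglycan Bcan by 0.80 ± 0.12. Pdgfra, the receptor that marks progenitors, was at 10.15 ± 0.24 with EGF and 9.89 ± 0.38 without it (change 0.26 ± 0.22, adjusted p = 0.562), and Olig2 was at 12.53 ± 0.06 and 12.38 ± 0.15. Sox10 no longer passed once clone 2 or 4 was left out (adjusted p up to 0.0824), and Ugt8a with the brightest probeset (-0.31, adjusted p = 0.22).

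Of 22 astrocyte maturation genes 13 fell (59.1%, against 3.28% of all genes) and none rose. The list median was -0.78, with clone medians of -0.67, -0.90, -0.56 and -0.76. Aqp4, the water channel of astrocyte endfeet, was at 8.58, 9.21, 9.48 and 9.61 without EGF and at 6.29, 6.57, 7.51 and 7.39 with it, and fell by 2.28 ± 0.19 (adjusted p = 0.000229). S100b, a calcium-binding protein, was at 7.81, 8.39, 8.28 and 8.86 against 5.76, 5.74, 6.25 and 7.03 and fell by 2.14 ± 0.15 (adjusted p = 9.71e-05). Slc1a2, a glutamate transporter, was at 9.54, 9.07, 9.79 and 10.13 without EGF and at 7.35, 7.06, 8.09 and 8.77 with it, and fell by 1.82 ± 0.18 (adjusted p = 0.000406). In these 3 genes every array without EGF was above every array with it. Apoe, the lipid carrier, fell by 1.96 ± 0.41, but clone 1 was at 7.44 without EGF and 7.32 with it, while the other clones went from 9.59 to 10.81 down to 7.11 to 8.17. Clu fell by 1.29 ± 0.17, and Gfap was at 8.66 ± 0.77 with EGF and 9.23 ± 0.49 without it (adjusted p = 0.282). The count of members that fell ranged from 8 to 14 when a clone was left out and was 7 with the brightest probeset, and Apoe needed each of clones 2, 3 and 4 to pass (adjusted p up to 0.12).

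**Figure D3:**
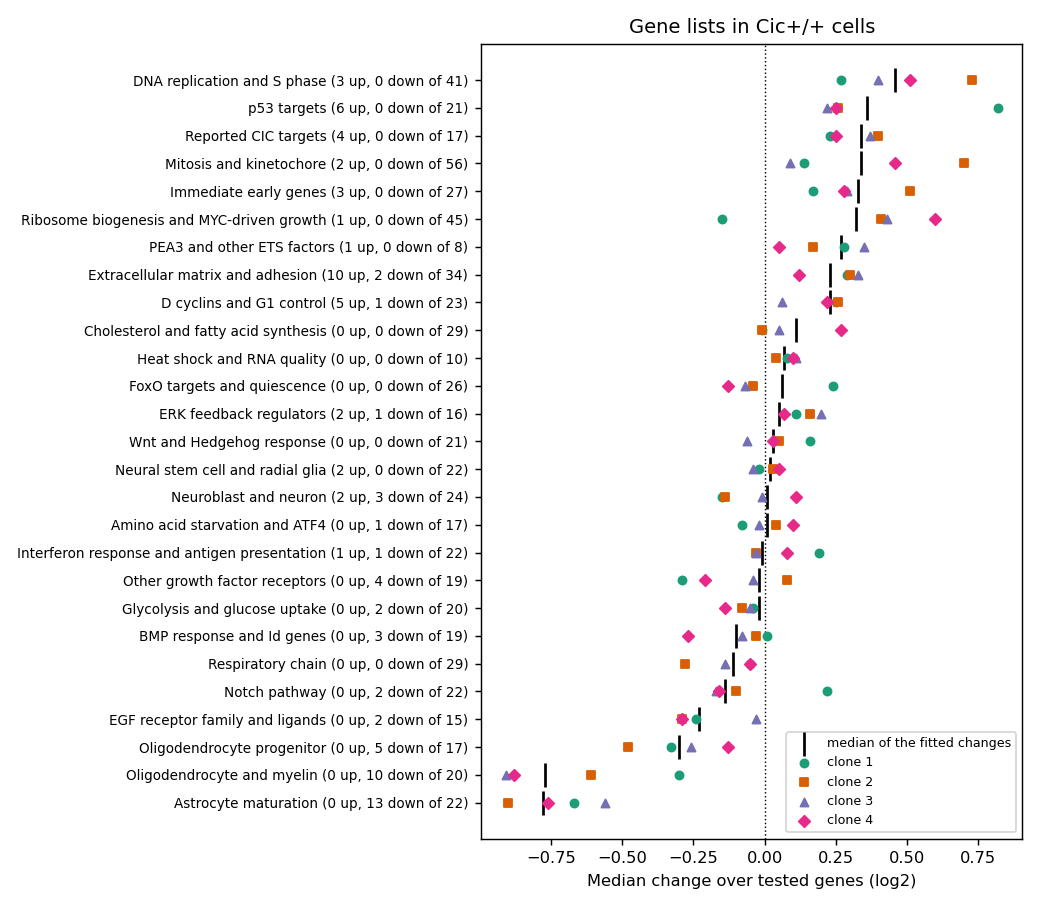
Median change with EGF (log2) over the tested genes of 27 lists in the Cic+/+ cells (black line), with the medians of single clones as points. The astrocyte and myelin lists lie lowest, at -0.78 and -0.77, and DNA replication lies highest, at 0.46.

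Of 22 neural stem cell and radial glia genes 2 rose (9.09%, against 2.3% of all genes) and none fell, with a list median of 0.02. Tnc, a matrix glycoprotein of the stem cell niche, was at 12.87, 11.96, 12.06 and 11.75 with EGF and 11.79, 9.79, 10.07 and 9.47 without it, and rose by 1.88 ± 0.24 (adjusted p = 0.002). Nes, the intermediate filament nestin, was at 10.60, 10.21, 9.86 and 10.05 against 10.07, 8.62, 8.05 and 8.70 and rose by 1.32 ± 0.21 (adjusted p = 0.00635). In both genes clone 1 without EGF overlapped the arrays with EGF. Sox2 was at 11.61 ± 0.20 with EGF and 11.66 ± 0.19 without it. Of 24 neuroblast and neuron genes 2 rose (8.33%) and 3 fell (12.5%, against 3.28% of all genes). Dcx, a microtubule protein of migrating neuroblasts, fell by 1.22 ± 0.23, the synaptic Nrxn3 by 1.10 ± 0.23 and the RNA-binding Elavl3 by 0.95 ± 0.15, while Syt1, a vesicle protein, rose by 1.03 ± 0.18 and Cd24a by 0.71 ± 0.16. Dcx lost its call without clone 2 or 3, Nrxn3 without clone 2, 3 or 4, Syt1 without clone 2 and Cd24a without any of clones 1 to 4 (adjusted p up to 0.0884, 0.103, 0.0669 and 0.122).

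Of 41 DNA replication genes 40 had a positive change and 3 rose (7.32%), with a list median of 0.46. Of 56 mitosis genes 54 were positive and 2 rose (3.57%), with a median of 0.34. Medians in clones 1 to 4 were 0.27, 0.73, 0.40 and 0.51 for DNA replication and 0.14, 0.70, 0.09 and 0.46 for mitosis. The genes of a list are not independent, so the counts of positive changes are descriptive. Over all 17364 genes tested 8615 were positive, 2.3% rose and the median was 0.00. Ccnd1, the cyclin that drives entry into the cycle, was at 12.76, 12.59, 12.38 and 12.75 with EGF and 12.51, 11.32, 10.85 and 11.41 without it, and rose by 1.10 ± 0.23 (adjusted p = 0.0227). Clone 1 without EGF overlapped the arrays with EGF. Cdkn1c, a brake on the cycle (p57), was at 7.37, 7.56, 8.30 and 8.07 without EGF and 5.98, 5.76, 6.96 and 5.73 with it, and fell by 1.72 ± 0.24 (adjusted p = 0.0032) with no overlap. Cdkn1a, the inhibitor p21, was at 12.67, 12.17, 12.34 and 12.36 with EGF and 11.65, 10.93, 11.68 and 10.92 without it, and rose by 1.09 ± 0.14 (adjusted p = 0.002). The repressor E2f7 rose by 1.05 ± 0.21, the polymerase genes Pole2 by 0.91 ± 0.22 and Pola1 by 0.66 ± 0.15, the ribonucleotide reductase Rrm2 by 0.58 ± 0.14, and the mitotic genes Kif22 by 0.65 ± 0.16 and Mad2l1 by 0.52 ± 0.13. Without clone 2, 3 or 4 taken in turn no DNA replication or mitosis gene passed. Mki67, a proliferation marker, was at 10.60 ± 0.37 with EGF and 10.20 ± 0.12 without it (adjusted p = 0.118), and Ccna2 at 10.76 ± 0.22 and 10.22 ± 0.21 (adjusted p = 0.0513). Ccnd1, E2f7, Pole2, Pola1, Rrm2, Kif22 and Mad2l1 each lost their call without at least 3 of clones 1 to 4 taken in turn (adjusted p up to 0.118, 0.107, 0.176, 0.15, 0.171, 0.18 and 0.22).

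The p53 target list had 6 of 21 members that rose (28.6%, against 2.3% of all genes) and none that fell, with a list median of 0.36. Its clone medians were 0.82 in clone 1 and 0.26, 0.22 and 0.25 in clones 2 to 4. Beside Cdkn1a, Phlda3, an inhibitor of AKT signalling, rose by 0.72 ± 0.12 (adjusted p = 0.00633), the death receptor Tnfrsf10b by 0.88 ± 0.15 and the mitotic Gtse1 by 0.90 ± 0.16. Trp53inp1 and Plk2 were the other members that rose. Without a clone the count was 2 to 7, and Tnfrsf10b lost its call without clone 2 and Gtse1 without clone 2 or 4 (adjusted p up to 0.0608 and 0.076).

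Of 27 immediate early genes 3 rose (11.1%, against 2.3% of all genes) and none fell: Egr2 by 1.06 ± 0.23, Egr3 by 0.93 ± 0.22 (both zinc finger factors) and the urokinase receptor gene Plaur by 1.06 ± 0.27. Fos was at 9.71 ± 0.35 with EGF and 9.72 ± 0.67 without it (adjusted p = 0.989), Egr1 at 9.42 ± 0.10 and 8.98 ± 0.14 (adjusted p = 0.0709) and Myc at 9.82 ± 0.23 and 9.35 ± 0.25 (adjusted p = 0.121). Of 16 feedback regulators 2 rose (12.5%) and 1 fell. Spry4 rose by 0.77 ± 0.18 and Dusp4 by 0.65 ± 0.16, and Spry3 fell by 0.82 ± 0.19. Spry1 and Spry2 differed by 0.26 ± 0.16 and -0.04 ± 0.12 (adjusted p = 0.391 and 0.896). Dusp6, the ERK phosphatase, was at 11.46, 11.34, 10.99 and 11.05 with EGF and 11.38, 10.63, 10.30 and 10.31 without it (0.55 ± 0.22, adjusted p = 0.184), and clone 1 overlapped. Egr2, Egr3, Plaur, Spry3, Spry4 and Dusp4 each lost their call without at least 3 of the 4 clones taken in turn (adjusted p up to 0.126, 0.162, 0.214, 0.187, 0.186 and 0.216).

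Among 8 ETS factors Ets2 was at 8.46, 8.34, 8.37 and 8.26 with EGF and 7.73, 7.70, 7.27 and 7.18 without it, which did not overlap, and rose by 0.89 ± 0.16 (adjusted p = 0.012). The PEA3 factors did not pass: Etv1 was at 8.10 ± 0.58 with EGF and 7.74 ± 0.40 without it, Etv4 at 8.40 ± 0.23 and 8.77 ± 0.59, and Etv5 at 11.42 ± 0.29 and 11.08 ± 0.29 (adjusted p = 0.446, 0.284 and 0.103). Of 17 reported CIC targets 4 rose (23.5%, against 2.3% of all genes) and none fell, with a list median of 0.34. Those that rose were Ccnd1, Spry4, Dusp4 and Cd24a. All 4 of those calls were lost without clone 2, without clone 3 and without clone 4, and none was left with the brightest probeset or with no replicate block. Ets2 no longer passed once clone 3 or 4 was left out (adjusted p up to 0.0735).

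Of 15 genes of the EGF receptor family and its ligands none rose and 2 fell (13.3%, against 3.28% of all genes). Tgfa, a ligand of EGFR, was at 8.54, 7.41, 7.48 and 6.90 without EGF and 6.65, 6.59, 6.19 and 6.16 with it, and fell by 1.18 ± 0.23 (adjusted p = 0.0153), with no overlap. Erbb4, a receptor for neuregulins, fell by 0.90 ± 0.18 (adjusted p = 0.0156). Egfr was at 10.86 ± 0.18 with EGF and 11.09 ± 0.25 without it (-0.23 ± 0.14, adjusted p = 0.416). Of 19 other growth factor receptors 4 fell (21.1%), among them Ntrk2 (the BDNF receptor, by 0.84 ± 0.16) and the FGF receptors Fgfr2 (by 0.80 ± 0.16) and Fgfr3 (by 0.77 ± 0.13). Tgfa lost its call without clone 3, Erbb4 without clone 2 or 3, Ntrk2 and Fgfr2 without clone 2, 3 or 4 and Fgfr3 without clone 2 (adjusted p up to 0.0754, 0.0894, 0.0965, 0.0964 and 0.0695).

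Genes of the extracellular matrix and adhesion moved both ways. Of 34 genes 10 rose (29.4%) and 2 fell (5.88%), against 2.3% and 3.28% of all genes. The list median was 0.23. Lamb1, a laminin chain, was at 9.85, 8.36, 8.68 and 8.28 with EGF and 8.16, 6.97, 7.28 and 6.65 without it, and rose by 1.53 ± 0.14 (adjusted p = 3e-04). Lama4, another laminin chain, was at 7.97, 8.51, 7.99 and 7.29 against 6.80, 6.49, 6.56 and 6.10 and rose by 1.45 ± 0.15 (adjusted p = 0.000553). Both groups were apart for Lama4 and for Lamb1. The laminin receptor Itga7 rose by 1.41 ± 0.20 and the protease inhibitor Timp1 by 1.74 ± 0.43, while its relative Timp3 fell by 1.38 ± 0.22. Without clone 2 or clone 3 the list had 5 members that rose, and Timp1 needed each of clones 2, 3, 4 and 5 to pass (adjusted p up to 0.173).

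In the Notch list, 2 of 22 fell (9.09%, against 3.28% of all genes), the ligand Dll3 by 1.31 ± 0.30 and the effector Hey2 by 1.09 ± 0.21. In the BMP list 3 of 19 fell (15.8%), among them the ligand Bmp4 by 1.58 ± 0.21 and the inhibitory Id4 by 0.89 ± 0.18. Dll3, Hey2 and Id4 lost their calls without clone 2, 3 or 4 (adjusted p up to 0.169, 0.099 and 0.094). No member passed in the lists of respiratory chain (29 genes), cholesterol synthesis (29), FoxO targets (26) or Wnt and Hedgehog response (21). Over all genes tested 5.58% passed, so in lists this short the lack of a call is near that share and says little. In the respiratory chain list 23 of 29 changes were negative, beside 8749 of 17364 over all genes. With the mean of the probesets 2 of its members fell.

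Over the 17364 genes the changes of clones 2 and 3 correlated most (r = 0.578) and those of clones 1 and 4 least (0.241), across genes, which are not independent. Clone 1 had the smallest change of the 4 clones for 48.1% of the 969 called genes. That share was not computed over all genes tested, where clone 1 also had the smallest SD of changes (0.398, against 0.433 to 0.496). Without EGF clone 1 held the highest level of the 4 clones for 56.9% of the risen genes, against 29.6% of all genes, and the lowest for 70.2% of the fallen genes, against 32.1%. The median change of risen genes was 0.64 in clone 1 and 0.76 to 0.83 in the other clones, and that of fallen genes -0.62 against -0.92 to -0.79.

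**Figure D4:**
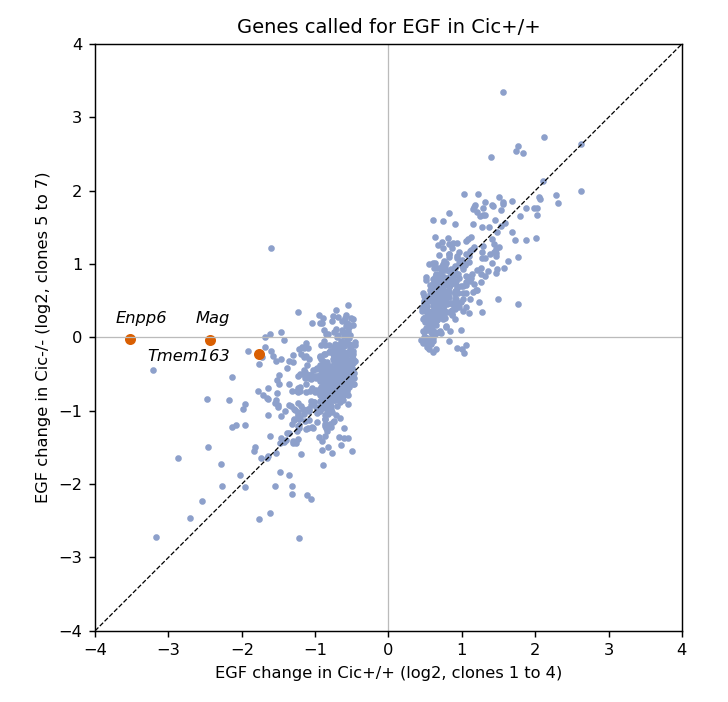
Change with EGF (log2) in Cic+/+ on the horizontal axis and in Cic-/- on the vertical axis, 1 point per gene called in Cic+/+, with equal change on the dashed line and the 3 genes whose responses differed between genotypes in orange. Enpp6 lies at -3.52 and -0.02, Mag at -2.43 and -0.03, and Tmem163 at -1.76 and -0.22.

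In Cic-/- clones 519 genes passed (2.99%), of which 241 rose (1.39%) and 278 fell (1.6%). Of the genes that rose in Cic+/+, 380 of 399 (95.2%) had a positive change in Cic-/-, and of those that fell 530 of 570 (93%) had a negative one, against 51% and 49% of all genes tested. In both genotypes 141 genes rose (35.3% of the Cic+/+ list and 58.5% of the Cic-/- list), 167 fell (29.3% and 60.1%), and 0 passed in opposite directions. The difference between the responses passed for 3 of 17364 genes (0.0173%), Enpp6, Mag and Tmem163, while 1105 (6.36%) had an unadjusted p under 0.05 (limma). Enpp6 and Mag passed again when any 1 of the 7 clones was left out, and Tmem163 in none of those 7 fits. With a stricter dim filter, which left out the bottom 50% of genes by mean level, Cdk18 and Tmem163 passed. Enpp6 and Mag were not among the genes called there.

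Enpp6 was at 3.99, 4.85 and 4.83 without EGF and 4.32, 4.55 and 4.76 with it in Cic-/- clones, a change of -0.02 ± 0.18, and its response differed from that of Cic+/+ by 3.50 ± 0.23 (adjusted p = 0.000309). Mag was at 4.54, 4.56 and 3.88 without EGF and 4.37, 4.37 and 4.17 with it, and differed by 2.41 ± 0.19 (adjusted p = 0.000744). Both genes lay around the dim limit in Cic-/- clones in either medium. Tmem163, a zinc transporter, was at 7.57, 7.48, 7.75 and 8 without EGF and 5.63, 5.58, 6.29 and 6.26 with it in Cic+/+ (-1.76 ± 0.13), and at 6.07, 5.72 and 6.02 against 5.70, 5.66 and 5.78 in Cic-/-, a difference of 1.53 ± 0.19 (adjusted p = 0.049). The adjusted p of Tmem163 was 0.0742 to 0.198 without 1 clone, 0.0616 with quantile normalization, 0.0712 with no dim filter and 0.267 with no replicate block, and over all alternatives it ran from 0.014 to 1. Above the threshold were Cdk18 (1.54 ± 0.20, adjusted p = 0.051), Myrf (1.54 ± 0.23), Mbp (1.74 ± 0.28) and Pdgfra (-2.05 ± 0.33), the last 3 at an adjusted p of 0.121. Mag did not pass with no replicate block (adjusted p = 0.0874). With the brightest probeset none of the 3 genes passed, with Tmem163 at -0.19 and Enpp6 and Mag at 2.58 and 2.13 (adjusted p = 0.387 for both).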

How the data were processed

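Gene levels were measured on 14 Affymetrix arrays, of which 8 are the Cic+/+ arrays described here. The deposited values are log2 levels per probeset made with RMA, per the submitters' processing notes. The sources used here do not state the RMA version or the annotation build. Of 269751 probesets, 233753 named 1 gene, 5106 named several and 30892 named none. Only the first kind was used, as the median over a gene's probesets (23152 genes, a median of 8 probesets, 2319 with 1). Symbols were matched to RefSeq (GRCm38.p6): 20875 matched as written, 2197 matched a synonym and 80 had no match and stay as on the array. Dim genes, meaning the bottom 25% by mean (5788 genes, limit 4.40), were not tested.

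The model was fitted with limma 3.58.1 in R 4.3.3 (the package data.table in version 1.17.8, Python 3.11.15, pandas 2.3.3, matplotlib 3.10.9) over all 14 arrays, with the clone as a fixed block and 1 EGF coefficient per genotype (5 residual and 5.59 prior degrees of freedom). Clones 5 to 7 thus add to the estimate of the spread. p-values were adjusted by Benjamini-Hochberg over 17364 genes at 0.05, and the script was tested on simulated data. Arrays of 1 clone come from 1 animal, and their deviations from the group means correlated at 0.474, 0.323, 0.459 and 0.337 (clones 1 to 4) and 0.584, 0.156 and 0.616 (clones 5 to 7). The p-values set the mean EGF change against its variation from clone to clone, pooled over both genotypes. The spread of levels between clones does not enter them. With 1 culture per clone and medium, differences between cultures and arrays are part of the clone-to-clone variation.

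Named genes are the 10 largest rises and 10 largest falls that passed with 1 sign in all clones and at least 3 probesets, 75% of them with the gene's sign. The rule also takes up to 5 called members of each of 32 lists, with up to 3 not called where few passed. It adds 5 genes with the smallest p between genotypes and 26 fixed genes. Not every gene so taken is described here: Pfkm, Ldhb, Chac1, Ifitm3, Ifit3, Axl, Smad9 and Rrp1b passed and are left out, for example. Counts over called named genes refer to a chosen set of 93 genes, which holds neither these nor Plk2. Vim, Fabp7, Cnp, Cldn11, Aspa, Sirt2 and Trp53inp1 are named as list members or markers, outside that rule. The members and lists were chosen with earlier results of these data known. Alternatives were other probeset summaries, normalizations, dim filters, priors, blocks and leaving out each clone. The counts of list members under some of these were added after seeing the data.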

Additional observations from a re-analysis of the deposited data

Results flagged for a closer look

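In 5 of 93 genes and 1 of 32 lists examined, 1 clone lay far from the others, and chance alone flags about 1 group in 20. Liph changed by 0.54 in clone 1 and by 2.55 to 2.73 in the others. Dusp6 changed by 0.08 in clone 1 against 0.69 to 0.74. Apoe changed by -0.11 in clone 1 against -2.64 to -2.48. Sting1 changed by 2.43 in clone 2 against 1.91 to 1.97, and Syt1 by 1.45 in clone 2 against 0.86 to 0.91. The p53 target list had a median of 0.82 in clone 1 and 0.22 to 0.26 in the others.

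The EGF response differed between Cic-/- and Cic+/+ by 3.50 for Enpp6, 2.41 for Mag and 1.53 for Tmem163, each past the threshold in a test of the difference itself. For Tmem163 (adjusted p = 0.049) the call was lost without any 1 of the 7 clones (0.0742 to 0.198), while Enpp6 and Mag passed in all 7 of those fits.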

How the results depend on the processing

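Of 969 genes called for EGF in Cic+/+, the mean of the probesets gave 1665 and no replicate block 156. The brightest probeset gave 672, with 414 of the 969 among them and 47 of the 969 of opposite sign. Without 1 clone at a time the count ran from 285 to 1066. Of 74 called genes in the chosen set of 93, 41 passed with the brightest probeset, 21 with no replicate block, and 41 to 73 without 1 clone. Genes differing between genotypes (3) numbered 10 with the mean, 0 with the brightest probeset and 8 with a trended robust prior. They numbered 1 with no replicate block, 7 with a random block, 2 with a stricter dim filter (Cdk18 and Tmem163) and 2 to 5 without 1 clone. The brightest probeset turned Fa2h to 0.19, Tmem163 to 0.02, the genotype difference of Tmem163 to -0.19 and Fos to 0.14. Fos was 0.01 with the mean, 0.04 without clone 3 and 0.15 without clone 4, and Spry2 0.02 without clone 4. Without 1 clone Fos ranged from -0.23 to 0.15 and Spry2 from -0.07 to 0.02. The causes were not tested. Arrays centred on their median, quantile normalization, dim filters and the fit on the Cic+/+ arrays alone kept the count of called genes within 1.5 times. The precision is limited by 4 clones, and levels near the dim limit of 4.40 limit the size of falls.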
